A study of Homo sapiens with 18 samples.

Results

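ECV304 cells kept with interleukin-1β (IL-1β) for 6 h were compared with ECV304 cells kept with the same cytokine for 1 h. The comparison took the 6 arrays labelled as IL-1β alone at these times, 3 per time, of 18 in all, by their treatment and time labels. Both groups received IL-1β at 100 IU/ml and the medium that stood in for aminaphtone, and both were confluent, serum-starved cultures. Other arrays described here hold cells given IL-1β with aminaphtone, a drug for capillary disorders, at 6 µg/ml for 6 h and for 1 h. Further ones hold cells given IL-1β alone for 3 h. The last group, given IL-1β with aminaphtone at 6 µg/ml for 3 h, was not compared. It entered the shared estimate of the spread and the means over all 18 arrays. Replicates are labelled as independent. There were no cells without IL-1β, so the time since the cytokine was added cannot be told apart from time in the starvation medium or in culture. Values are log2 signals of Affymetrix Human Gene 1.0 ST arrays, made by robust multi-array averaging (RMA), so a log2 difference of 1 is a change of 2-fold.

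IL-1β binds a receptor pair that signals through the adaptor MYD88 and IRAK kinases to the transcription factor NF-κB and to MAP kinases. The first genes to answer need no new protein, and many of them encode transcription factors and feedback inhibitors whose mRNAs are short-lived. Chemokines, adhesion molecules and secreted proteases follow, and several of these genes are read by NF-κB or by AP-1, the dimer of FOS and JUN family proteins. ECV304 was long used as an endothelial model and was later traced by DNA typing to a bladder carcinoma line. Of 14 endothelial marker genes, 8 had signals above the filter on low signal, a mean of 6.193 over the 18 arrays. PECAM1, VWF, KDR, TEK, ERG and EMCN lay under it, with means of 4.57 to 6.03. Keratins of simple epithelia were strong, with mean log2 signals of 11.36 for KRT7, 12.38 for KRT8 and 11.75 for KRT18. These 3 were picked from an urothelial and epithelial list of 18 genes, of which 14 passed the filter. They lie far above that list's averages, which are given below. The endothelial list averaged 7.48, 7.51 and 7.36 on the 6 h arrays and 7.14, 7.59 and 7.35 on the 1 h arrays. The urothelial and epithelial list averaged 8.01, 8.0 and 8.01 at 6 h and 8.18, 8.43 and 8.41 at 1 h. Of its 14 tested members 4 were lower at 6 h (28.6%), or 7 without 1 h replicate 1 and 2 without 1 h replicate 3. In every fit that left out 1 array 1 was lower. Of the endothelial list 1 of the 8 members (12.5%), CDH5, was higher (log2 difference 0.93). Over all transcript clusters tested, the array's units of 1 gene or locus, 15.2% were lower and 11.3% higher. In such bulk samples fewer cells of a type and less RNA per cell cannot be told apart.

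The 1 h arrays stood apart from the rest in how much they differed among themselves. Across transcript clusters the signals correlated at 0.984 to 0.994 among the 6 h arrays and at 0.889 to 0.963 among the 1 h arrays. In the other groups they correlated at 0.97 to 0.996. Of the 15796 transcript clusters tested, 0.399% ranged over more than 1 log2 unit among the 6 h arrays and 15.8% among the 1 h arrays. The 1 h replicate 3 lay between replicates 1 and 2 in 74.7% of transcript clusters. The spread of each gene is estimated over all 6 groups, so it can be too small for the 1 h group, and the count of calls depended on which array was left out.

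In limma, 1783 transcript clusters were higher at 6 h than at 1 h and 2402 were lower, at an adjusted p under 0.05. The 4185 calls are 26.5% of those tested, of which 11.3% higher and 15.2% lower. Subtracting each array's median before the fit gave 2102 higher and 2059 lower, so which direction held more calls depended on the centring. At an unadjusted p under 0.05 the share was 38.1%, and the arrays of the 2 times did not overlap in 30.7%. The total was 7083 without 1 h replicate 1 (3360 higher and 3723 lower) and 2586 without 6 h replicate 3 (946 and 1640). It was 1088 (373 and 715) when only the 6 arrays compared entered the fit. Of the 4185, 2231 were called in each of the 6 fits that left out 1 of these arrays, 857 higher (5.43% of those tested) and 1374 lower (8.7%), 14.1% in all. Large changes belonged to few genes. Rises of 2-fold or more were found in 366 transcript clusters and falls of that size in 360. Rises of 8-fold or more numbered 9 and such falls 8. No rise and 5 falls reached 16-fold.

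**Figure D1:**
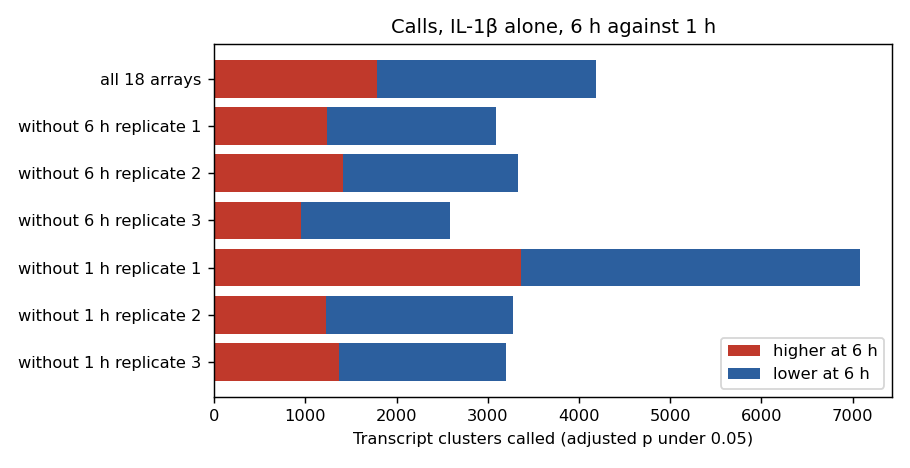
Bars give the number of transcript clusters called by limma at an adjusted p under 0.05 (x axis) with all 18 arrays and with each of the 6 compared arrays left out (rows); red is higher at 6 h and blue lower at 6 h. The total of 4185 lay between 2586 without 6 h replicate 3 and 7083 without 1 h replicate 1.

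The 5 largest falls were those of immediate early transcription factors, the genes that respond to a stimulus within minutes and only for a short time. Of 31 tested members 25 were lower at 6 h and none was higher, with a median log2 difference of -1.5, against 15.2% lower and a median of -0.01 over all transcript clusters. The 3 NR4A orphan nuclear receptors were among its 5 largest falls. NR4A1 had log2 signals of 7.92, 8.15 and 7.79 at 6 h and of 12.32, 12.51 and 12.60 at 1 h, 22.9-fold lower at 6 h (log2 difference -4.52, SE 0.195, limma adjusted p = 1.88e-10). NR4A2 had 7.14, 7.02 and 6.81 at 6 h and 11.62, 10.95 and 11.39 at 1 h, 20.1-fold lower (SE 0.185, limma adjusted p = 1.88e-10). NR4A3 had 6.86, 6.51 and 6.86 at 6 h and 11.36, 10.40 and 11.16 at 1 h, 18.8-fold lower (limma adjusted p = 1.85e-06). At 1 h these genes were well up the range of the arrays, and at 6 h they lay near or a little above the array medians of 6.926 to 7.055.

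FOSB and FOS encode partners of JUN in AP-1. FOSB had log2 signals of 7.79, 8.02 and 7.65 at 6 h and 12.04, 12.35 and 12.23 at 1 h, 20.9-fold lower (limma adjusted p = 2.04e-07). FOS had 7.73, 7.80 and 7.44 at 6 h and 9.79, 9.92 and 9.64 at 1 h, a fall of 4.37-fold (limma adjusted p = 9.35e-08). JUN, JUNB, JUND, FOSL1 and FOSL2 fell too, by log2 differences of -1.65, -1.84, -1.54, -1.21 and -0.78, so every tested FOS and JUN gene was called lower. The zinc finger factors of the EGR family behaved alike. EGR3 was 19.9-fold lower, with 7.10, 7.12 and 7.06 at 6 h against 11.38, 11.19 and 11.65 at 1 h. EGR1 was 11.9-fold lower, with 9.68, 9.96 and 8.99 at 6 h against 13.11, 13.09 and 13.14 at 1 h, so it stayed far above the array median after its fall. EGR4 was 7.68-fold lower and CSRNP1, a nuclear protein rich in cysteine and serine, 7.37-fold. PRDM1, a transcriptional repressor, had 7.36, 7.39 and 7.34 at 6 h and 9.53, 9.12 and 9.52 at 1 h, 4.07-fold lower (limma adjusted p = 2.02e-08). MYC fell by 0.68 on the log2 scale, and KLF4, KLF2, KLF5, IER5, BTG1 and NAB1 were not called, with log2 differences of -0.19 to 0.36. Of the 25 calls, 24 held with each of the 6 arrays left out.

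The promoters of the 2 called members with the smallest p among those in the RefSeq promoter table are shown from 250 bases before to 50 after the transcript start (GRCh38.p14), so that the DNA upstream of these falling genes can be read. That of NR4A1 is the first of 2 listed starts (chr12:52022582-52022881, plus strand), and that of PRDM1 the first of 2 (chr6:106086086-106086385, plus strand). Capitals mark matches to a searched motif.
NR4A1: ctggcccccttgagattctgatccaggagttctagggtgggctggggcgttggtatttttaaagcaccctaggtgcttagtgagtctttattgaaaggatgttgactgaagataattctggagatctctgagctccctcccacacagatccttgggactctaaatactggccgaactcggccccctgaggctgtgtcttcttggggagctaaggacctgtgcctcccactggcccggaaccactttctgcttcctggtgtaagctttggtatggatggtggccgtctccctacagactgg
PRDM1: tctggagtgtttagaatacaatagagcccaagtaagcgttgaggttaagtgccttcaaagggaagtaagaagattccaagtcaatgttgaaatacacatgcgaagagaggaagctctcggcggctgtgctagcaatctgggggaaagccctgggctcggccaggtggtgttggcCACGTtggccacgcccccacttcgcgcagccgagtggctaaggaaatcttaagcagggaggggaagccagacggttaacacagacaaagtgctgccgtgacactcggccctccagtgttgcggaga
The cAMP response element TGACGTCA, searched on both strands, was found in the promoters of 2 of 25 list members with a RefSeq entry and in 3.6% of those of 10852 tested genes. The CArG box, read by serum response factor, was found in 2 of 25 and in 1.58%. TATAAA on the gene's strand was found in 6 of 25 and in 6.13%. The capitals in PRDM1 are ACGTG read from the opposite strand, described with the hypoxia genes.

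Genes of MAP kinase feedback were lower more often than higher, and the balance among those of AU-rich mRNA decay depended on single arrays. Of 16 MAP kinase feedback genes 7 were lower (43.8%, against 15.2% over all transcript clusters) and 2 higher (median log2 difference -0.21), or 4 higher without 1 h replicate 1. DUSP1, a phosphatase of p38, JNK and ERK, had log2 signals of 10.85, 10.81 and 10.55 at 6 h and 12.27, 12.41 and 12.38 at 1 h, 3.07-fold lower (limma adjusted p = 1.05e-05). DUSP6 and SPRY4, inhibitors of the ERK branch, were 2.4-fold and 1.95-fold lower, whereas DUSP7, an ERK phosphatase, was 2.06-fold higher, with 11.42, 11.35 and 11.37 at 6 h and 9.89, 10.67 and 10.46 at 1 h. Of 23 genes of AU-rich mRNA decay 4 were lower (17.4%) and 7 higher (median 0.11), but the higher count was 2 to 4 without any single array other than 1 h replicate 1, and 11 without that one. ZFP36, tristetraprolin, which binds AU-rich elements of cytokine mRNAs and speeds their decay, had 9.40, 9.52 and 9.30 at 6 h and 11.74, 12.31 and 12.07 at 1 h, 6.2-fold lower (limma adjusted p = 5.7e-07). Its relative ZFP36L1 was 2.17-fold lower. No array overlapped between the times in DUSP1, DUSP7 or ZFP36, which also held for 30.7% of all transcript clusters tested.

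The remaining genes among the 12 largest falls have other roles. TMEFF2, a membrane protein with follistatin domains, had log2 signals of 6.47, 6.54 and 6.93 at 6 h and 10.15, 9.81 and 10.12 at 1 h, 10.4-fold lower (limma adjusted p = 2.7e-05). ITPKC, an inositol trisphosphate kinase, was 8.35-fold lower, and KRT15, a keratin of basal epithelial cells, was 6.7-fold lower. GDF15, a stress-induced cytokine of the TGF-β family, had 10.53, 10.82 and 10.06 at 6 h and 13.08, 13.37 and 13.36 at 1 h, 6.97-fold lower (limma adjusted p = 5.24e-07).

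**Figure D2:**
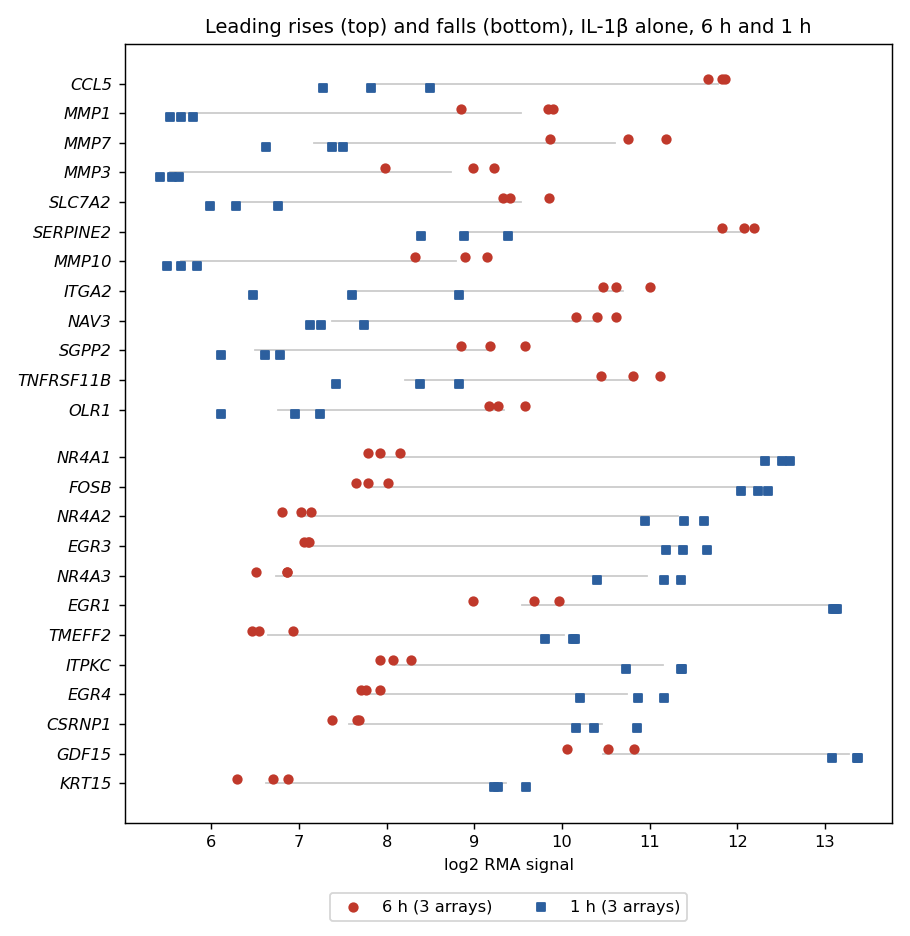
Log2 RMA signal (x axis) of the 12 largest rises (upper rows) and the 12 largest falls (lower rows) called in every leave-one-out fit; red circles are the 3 arrays at 6 h, blue squares the 3 at 1 h, and the grey line joins the means. The 24 genes were chosen to have no overlap between the arrays of the 2 times. ITGA2 has the widest spread at 1 h, 6.48 to 8.83.

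Cytokine and chemokine genes were mostly higher at 6 h. Of 27 tested members 14 were higher (51.9%) and 4 lower (14.8%), against 11.3% and 15.2% over all transcript clusters. The median log2 difference was 0.55. CCL5, the chemokine RANTES, had log2 signals of 11.86, 11.66 and 11.82 at 6 h and 7.27, 7.82 and 8.49 at 1 h, 15.1-fold higher (log2 difference 3.92, SE 0.264, limma adjusted p = 7.49e-08). It was the largest rise of all. CXCL6, a neutrophil chemokine, had 9.18, 8.65 and 9.40 at 6 h and 6.52, 6.80 and 7.07 at 1 h, 4.85-fold higher (limma adjusted p = 1.31e-07). IL1B, which encodes the stimulating cytokine, had 8.78, 7.89 and 9.11 at 6 h and 6.11, 6.22 and 6.65 at 1 h, 4.8-fold higher (limma adjusted p = 1.64e-05). EBI3, a subunit shared by cytokines of the IL-12 family, was 2.99-fold higher. CCL22, CSF1, CCL2, CSF3, CCL20 and CXCL8 rose by log2 differences of 1.0, 0.96, 0.9, 0.84, 0.84 and 0.39. The members that fell were TNFSF10 (-2.0), TNF (-1.84), LIF (-1.12) and CXCL3 (-0.78). IL6 had a log2 difference of 0.02 and CXCL2 of -0.44, and neither was called. Without both 1 h replicates 1 and 2, a check added after the data were seen, 9 members were higher and 5 lower.

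The promoters of CXCL6 (chr4:73836428-73836727, plus strand) and IL1B (chr2:112836730-112837029, minus strand) are given by the same rule (GRCh38.p14) and in the same window.
CXCL6: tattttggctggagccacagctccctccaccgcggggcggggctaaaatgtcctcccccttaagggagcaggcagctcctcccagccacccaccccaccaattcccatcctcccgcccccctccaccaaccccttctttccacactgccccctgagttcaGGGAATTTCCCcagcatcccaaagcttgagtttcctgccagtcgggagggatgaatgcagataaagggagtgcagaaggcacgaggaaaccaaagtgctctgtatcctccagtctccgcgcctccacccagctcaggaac
IL1B: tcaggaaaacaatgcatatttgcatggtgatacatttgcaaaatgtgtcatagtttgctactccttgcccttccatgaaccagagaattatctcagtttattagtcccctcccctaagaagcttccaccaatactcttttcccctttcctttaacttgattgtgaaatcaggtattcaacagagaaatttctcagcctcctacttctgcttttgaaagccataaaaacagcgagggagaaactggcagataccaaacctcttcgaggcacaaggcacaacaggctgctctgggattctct
The capitals in CXCL6 are a κB site, the element bound by NF-κB, which starts 90 bases before the transcript start and matches on both strands in overlapping frames. A κB site, searched on both strands, was found in the promoters of 11 of 20 list members with a RefSeq entry (55.0%) and in 9.2% of those of all tested genes. It was in 4 of 25 of the immediate early list, 2 of 14 of the cholesterol list and 2 of 20 of the hypoxia list. Among genes with a change of at least 2-fold that held in each leave-one-out fit, 9.21% of 239 that rose and 14.2% of 253 that fell had one. No searched motif was found in the window of IL1B.

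More cytokine receptors were higher at 6 h than lower. Of 32 receptors and adaptors 17 were higher (53.1%) and 3 lower (9.38%), against 11.3% and 15.2% over all transcript clusters. The median log2 difference was 0.45. The counts were 10 and 2 without 6 h replicate 3, and 19 and 5 without 1 h replicate 1. Only 1 was lower without 6 h replicate 1, 6 h replicate 2 or 1 h replicate 3. TNFRSF11B, osteoprotegerin, a decoy receptor of the TNF family, had log2 signals of 10.81, 10.45 and 11.12 at 6 h and 8.83, 7.42 and 8.38 at 1 h, 5.98-fold higher (limma adjusted p = 1.32e-05). TNFRSF9, a costimulatory receptor, was 2.31-fold higher, and TNFRSF10A, a death receptor for TRAIL, 1.63-fold. Both chains of the IL-1 receptor were higher, IL1R1 by 1.04 and IL1RAP by 1.09 on the log2 scale, while the adaptor MYD88 was lower by a log2 difference of -0.42. CISH, a suppressor of cytokine signalling, was 1.86-fold lower, with 7.35, 7.59 and 7.24 at 6 h and 8.09, 8.39 and 8.38 at 1 h. The 3 genes of the IL-1 receptor pair and its adaptor were picked out after their values were seen.

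Subunits and feedback genes of NF-κB moved both ways. Of 24 tested members 10 were higher (41.7%) and 7 lower (29.2%), against 11.3% and 15.2% over all transcript clusters. The median log2 difference was 0.27. TNIP1, which restrains NF-κB through A20, had log2 signals of 10.91, 10.60 and 10.72 at 6 h and 8.68, 9.40 and 9.12 at 1 h, 3.2-fold higher (limma adjusted p = 3.31e-06). IRAK2, a kinase of the IL-1 receptor pathway, had 10.43, 10.30 and 10.26 at 6 h and 8.30, 8.49 and 9.23 at 1 h, 3.15-fold higher. MAP3K8, which couples this pathway to ERK, was 2.28-fold higher. Of the IκB family, which holds NF-κB back or modulates it in the nucleus, 4 of the 5 listed genes fell. NFKBIE had 8.54, 8.25 and 8.39 at 6 h and 9.78, 10.52 and 10.42 at 1 h, 3.6-fold lower (limma adjusted p = 9.71e-06), and BCL3, NFKBIZ and NFKBIA had called log2 differences of -0.94, -0.84 and -0.48. TNFAIP3, the gene of A20, was called lower too (-0.93). NFKBIB (0.20) and the subunit genes RELA, RELB, NFKB1 and NFKB2 (-0.14 to 0.33) were not called, and the subunit gene REL was lower (-1.34).

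Genes of proteolysis and adhesion supplied 6 of the 12 largest rises. Of 23 genes of extracellular proteolysis 8 were higher and 3 lower, or 5 lower without 1 h replicate 1, and the median log2 difference was 0.06. The shares over all transcript clusters were 11.3% higher and 15.2% lower. The list's higher share was thus larger than that over all, and its lower share a little smaller. MMP1, a collagenase, had log2 signals of 9.90, 8.85 and 9.84 at 6 h and 5.79, 5.53 and 5.66 at 1 h, 14.6-fold higher (log2 difference 3.87, SE 0.218, limma adjusted p = 7.87e-09). MMP3, a stromelysin, had 9.22, 7.98 and 8.99 at 6 h and 5.41, 5.63 and 5.55 at 1 h, 9.18-fold higher. MMP10, another stromelysin, had 8.89, 8.32 and 9.15 at 6 h and 5.65, 5.84 and 5.49 at 1 h, 8.74-fold higher. These 3 genes were under the filter's level on each 1 h array, so their folds depend on signals near the array's background. In each of them 6 h replicate 2 was the lowest of its group. MMP7, matrilysin, started from a higher level, with 10.75, 9.86 and 11.19 at 6 h and 7.5, 6.63 and 7.38 at 1 h, 10.8-fold higher (limma adjusted p = 9.9e-07). SERPINE2, an inhibitor of thrombin and plasminogen activators, had 12.19, 11.82 and 12.07 at 6 h and 8.88, 8.39 and 9.38 at 1 h, 8.85-fold higher. The gelatinase genes MMP2 and MMP9 were not called (-0.25 and 0.09), and MMP15, TIMP2 and ADAMTS1 were lower.

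Of 24 adhesion molecules and integrins 9 were higher (37.5%) and 3 lower (12.5%), against 11.3% and 15.2% over all transcript clusters. The median log2 difference was 0.28. Without 6 h replicate 2, without 6 h replicate 3 or without 1 h replicate 3 only 1 was lower. ITGA2, the integrin α2 subunit of the collagen receptor, had log2 signals of 10.62, 10.47 and 11 at 6 h and 8.83, 6.48 and 7.60 at 1 h, 8.35-fold higher (SE 0.428, limma adjusted p = 0.000112). Its 1 h arrays ranged over more than 2 log2 units, so its fold is one of the least certain among the leading genes. CD44, the hyaluronan receptor, had 13.31, 13.20 and 13.40 at 6 h and 11.83, 11.10 and 11.86 at 1 h, 3.26-fold higher (limma adjusted p = 3.65e-06). NT5E, the ecto-nucleotidase CD73, was 2.88-fold higher, and PODXL, a sialomucin, 2.25-fold. ICAM1 (0.04) and SELE (0.33), leukocyte adhesion molecules of activated endothelium, were not called. SLC7A2, an arginine transporter, NAV3, a neuron navigator, SGPP2, a sphingosine phosphate phosphatase, and OLR1, the receptor for oxidised LDL, complete the 12 largest rises, at 9.12-fold, 8.08-fold, 6.51-fold and 5.97-fold.

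Cholesterol synthesis genes were lower at 6 h. The pathway turns acetyl-CoA into mevalonate and isoprenoids and then into sterols, and its genes are read by SREBP2, which is released when membrane sterol is low. All 16 tested members had negative log2 differences, and 12 were called lower, each in every leave-one-out fit (median -1.01). Of all transcript clusters tested 15.2% were lower, 8.7% in every leave-one-out fit, and 11.3% were higher. IDI1, an isoprenoid isomerase, had log2 signals of 8.49, 8.37 and 8.69 at 6 h and 11.06, 10.18 and 10.31 at 1 h, 4.0-fold lower (log2 difference -2.0, SE 0.201, limma adjusted p = 5.38e-06). MVK, mevalonate kinase, had 7.39, 7.28 and 7.12 at 6 h and 8.65, 9.67 and 8.96 at 1 h, 3.55-fold lower (limma adjusted p = 3.27e-05). MVD, the decarboxylase that forms the isoprenoid unit, was 2.07-fold lower and the sterol reductase TM7SF2 1.96-fold. FDPS, PMVK, SC5D and CYP51A1 were not called (-0.47 to -0.15). Genes of sterol regulation and fatty acid synthesis went the same way, with 13 of 24 lower (54.2%) and 2 higher (8.33%) and a median of -0.55. Without 6 h replicate 1, 6 h replicate 3, 1 h replicate 2 or 1 h replicate 3 only 1 was higher. Their members included ACSS2, an acetyl-CoA synthetase (2.73-fold lower), FADS2, a fatty acid desaturase (1.98-fold), ACACB, an acetyl-CoA carboxylase (1.88-fold), and SCD, a stearoyl-CoA desaturase (1.53-fold). SREBF1 and SREBF2, the genes of the SREBP factors, were called lower, at -0.92 and -0.83. The 2 members that were higher were ABCA1, a cholesterol exporter, and INSIG2, which holds SREBP in the endoplasmic reticulum, both at 0.66. INSIG2 stands in the list of hypoxia-inducible targets as well.

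The promoters of IDI1 (first of 3 listed starts, chr10:1056655-1056954, minus strand) and MVK (chr12:109573544-109573843, plus strand) are shown by the same rule (GRCh38.p14) and in the same window.
IDI1: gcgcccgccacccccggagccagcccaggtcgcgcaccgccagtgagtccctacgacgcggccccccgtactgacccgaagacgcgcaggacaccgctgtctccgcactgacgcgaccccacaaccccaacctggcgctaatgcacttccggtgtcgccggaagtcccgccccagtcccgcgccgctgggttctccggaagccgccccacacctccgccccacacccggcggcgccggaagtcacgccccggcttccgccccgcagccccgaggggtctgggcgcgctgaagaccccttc
MVK: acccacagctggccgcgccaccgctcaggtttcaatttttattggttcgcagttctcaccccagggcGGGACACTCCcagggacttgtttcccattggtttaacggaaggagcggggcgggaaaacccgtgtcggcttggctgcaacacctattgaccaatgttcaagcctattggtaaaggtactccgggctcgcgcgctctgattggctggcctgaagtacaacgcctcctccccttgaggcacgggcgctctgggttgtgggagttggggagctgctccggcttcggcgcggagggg
The sterol regulatory element core TCACNCCAC, where N is any base, was not found on either strand in these windows of the 14 list members with a RefSeq entry, and was found in 1.46% of those of all tested genes. The capitals in MVK are a κB site starting 183 bases before the transcript start.

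Genes of a list of hypoxia-inducible factors and their targets were mostly higher at 6 h. It is called the hypoxia-inducible targets or hypoxia list for short. Beside targets it names the factor genes HIF1A, EPAS1 and ARNT and the regulators VHL, EGLN1 and EGLN2. These factors are held down by prolyl hydroxylases when oxygen is plentiful, and their targets serve glucose use, mitophagy, collagen hydroxylation and vessel growth. Of 27 tested members 16 were higher (59.3%) and 4 lower (14.8%), against 11.3% and 15.2% over all transcript clusters. The median log2 difference was 0.6. The counts were 11 and 1 without 6 h replicate 3, and 2 were lower without 6 h replicate 2, 1 h replicate 2 or 1 h replicate 3. STC2, a stanniocalcin, had log2 signals of 9.42, 8.96 and 9.09 at 6 h and 6.90, 6.98 and 7.26 at 1 h, 4.32-fold higher (limma adjusted p = 3.33e-07). HILPDA, a lipid droplet protein, had 10.39, 9.94 and 10.06 at 6 h and 7.90, 8.39 and 8.15 at 1 h, 3.95-fold higher. BNIP3, a mitophagy receptor, had 12.12, 11.80 and 11.98 at 6 h and 10.60, 10.55 and 10.65 at 1 h, 2.58-fold higher (log2 difference 1.37, SE 0.129, limma adjusted p = 2.74e-06). The 3 arrays of BNIP3 at 1 h lay close together, and those at 6 h were all far above them. CITED2, a factor that competes with HIF for its coactivator, was 2.97-fold lower. Of 24 genes of glycolysis and glucose use 7 were higher (29.2%) and 4 lower (16.7%), and the median was -0.01. Without 6 h replicate 2 or 1 h replicate 3 only 2 were lower. HK2, hexokinase 2, had 9.84, 9.62 and 10.05 at 6 h and 7.42, 7.42 and 7.83 at 1 h, 4.85-fold higher (limma adjusted p = 2.76e-07). PDK1 and PDK2, kinases that shut pyruvate dehydrogenase, moved in opposite directions: PDK1 was 3.3-fold higher, with 9.94, 9.65 and 10.23 at 6 h against 8.73, 7.69 and 8.23 at 1 h, and PDK2 was 4.86-fold lower, with 7.95, 8.19 and 7.86 against 9.98, 10.66 and 10.20. PFKFB4, a kinase and phosphatase of fructose phosphates, was 2.39-fold higher. Most enzymes of the pathway's trunk, among them GPI, ALDOA, GAPDH, PGK1, ENO1 and PKM, were not called.

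The promoters of STC2 (chr5:173328365-173328664, minus strand) and BNIP3 (chr10:131981874-131982173, minus strand) are shown by the same rule and in the same window (GRCh38.p14).
STC2: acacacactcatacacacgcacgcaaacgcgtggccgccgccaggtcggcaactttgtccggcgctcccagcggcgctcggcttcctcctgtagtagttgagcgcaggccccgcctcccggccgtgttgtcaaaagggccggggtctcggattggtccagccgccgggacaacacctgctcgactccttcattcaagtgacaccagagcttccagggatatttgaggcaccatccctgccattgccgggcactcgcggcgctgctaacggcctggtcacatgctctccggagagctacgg
BNIP3: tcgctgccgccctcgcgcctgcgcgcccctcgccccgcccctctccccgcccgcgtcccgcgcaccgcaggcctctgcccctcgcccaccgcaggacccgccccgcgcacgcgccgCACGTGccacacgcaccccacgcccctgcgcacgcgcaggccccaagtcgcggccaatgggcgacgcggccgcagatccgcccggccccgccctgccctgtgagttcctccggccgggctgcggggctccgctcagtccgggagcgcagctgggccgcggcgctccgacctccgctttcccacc
The capitals in BNIP3 are CACGTG, a palindrome that holds the hypoxia response element core ACGTG on both strands in overlapping frames and starts 134 bases before the transcript start. ACGTG, searched on both strands, was found in the promoters of 11 of 20 list members with a RefSeq entry (55.0%), in 11 of 25 of the immediate early list (44.0%), in 3 of 14 of the cholesterol list, in 0 of 20 of the cytokine list and in 31.1% of all tested genes. No searched motif was found in the window of STC2.

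**Figure D3:**
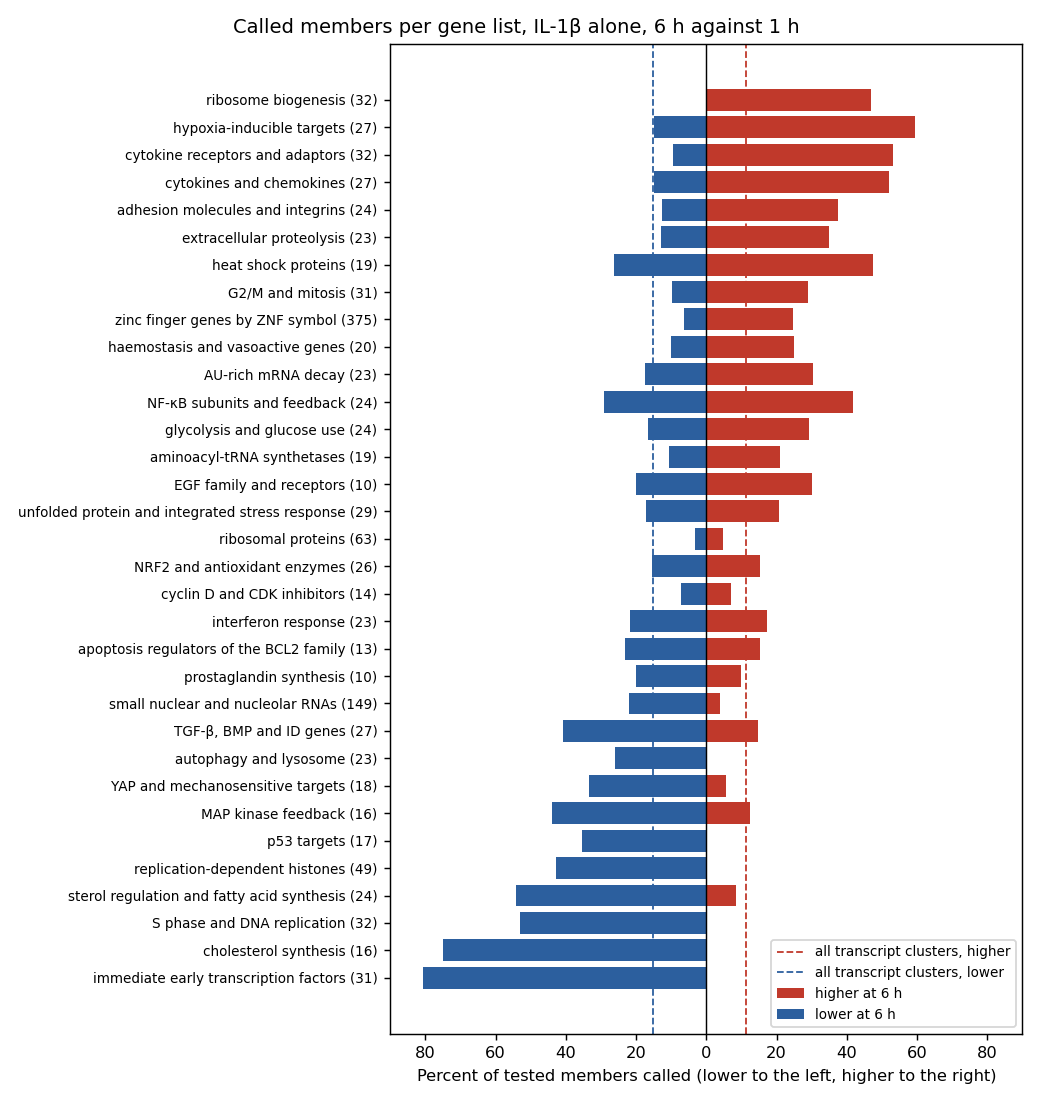
Percent of the tested members of each of 33 gene lists (rows, with the number tested) called higher at 6 h (red, right) or lower at 6 h (blue, left) by limma; dashed lines are the shares over all transcript clusters, 11.3% higher and 15.2% lower. Immediate early and cholesterol synthesis genes reach farthest to the left, and hypoxia-inducible targets, cytokine receptors and cytokines farthest to the right.

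When the fit held no other arrays than the 6 at 6 h and 1 h, fewer members of most lists were called. Over all transcript clusters 373 of 15796 were then higher and 715 lower. The immediate early list then had 23 lower and the cholesterol list 9, both within 1.5 times of 25 and 12. The cytokine list had 8 higher and 2 lower, the receptor list 5 and 1, the NF-κB list 6 and 3, the proteolysis list 6 and 1 and the hypoxia list 6 and 1. The S phase list had 5 of 32 lower, the sterol and fatty acid list 5 of 24, the histone list 2 of 49 and the small RNA list 20 of 149. The ribosome biogenesis list had 2 of 32 higher and the zinc finger list 14 of 375.

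Genes of DNA replication were lower at 6 h, and the count of mitosis genes depended on single arrays. Of 32 S phase genes 17 were lower (53.1%) and none higher (median log2 difference -0.48). Over all transcript clusters 15.2% were lower and 11.3% higher. PRIM1, a primase subunit, was 2.2-fold lower, with log2 signals of 8.68, 8.94 and 8.70 at 6 h and 10.29, 9.64 and 9.81 at 1 h (limma adjusted p = 0.000317). RFC4, of the clamp loader, was 1.93-fold lower, and MCM5 and MCM2, of the replicative helicase, 2.25-fold and 2.1-fold. Of 49 replication-dependent histone genes 21 were lower (42.9%) and none higher (median -0.39). The lower count was 13 without 6 h replicate 3, 34 without 1 h replicate 1 and 12 without 1 h replicate 2. Without both 1 h replicates 1 and 2 the median was -0.25. H1-3 was 2.43-fold lower, H1-5 1.79-fold, H4C1 1.75-fold and H2AC6 1.48-fold. Many histone genes are near-identical, so signal can be shared between them. Of 31 G2/M genes 9 were higher (29.0%) and 3 lower (9.68%), with a median of 0.38. The higher count was 1 without 6 h replicate 2, 4 without 6 h replicate 3, 3 without 1 h replicate 2 and 16 without 1 h replicate 1. The list averaged 9.79, 10.18 and 9.92 at 6 h and 9.96, 9.45 and 9.58 at 1 h, so 1 h replicate 1 stood above 6 h replicates 1 and 3. CCNB1, cyclin B1, was 1.93-fold higher, and BUB1, a spindle checkpoint kinase, 1.86-fold. CDC25B, a phosphatase that activates mitotic CDK1, was 2.22-fold lower and PLK2, a polo-like kinase, 1.71-fold. A list of D cyclins, their kinases CDK4 and CDK6, CDK inhibitors and RB family genes had 14 tested members. The kinase genes CDK6, which was higher (3.42-fold), and CDK4, which was lower (1.7-fold), were its only calls, each 7.14% of the list. No D cyclin or CDK inhibitor gene was called. Without 1 h replicate 1, 3 were higher and 4 lower. CDKN2A and CDKN1A were not called (-0.32 and -0.35).

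Of 32 ribosome biogenesis genes 15 were higher (46.9%) and none lower (median log2 difference 0.4). Over all transcript clusters 11.3% were higher and 15.2% lower. The higher count was 9 without 6 h replicate 3, and 2 genes were lower without 1 h replicate 1. DKC1, a pseudouridine synthase, was 2.26-fold higher, with 10.24, 10.23 and 10.38 at 6 h and 9.50, 8.45 and 9.36 at 1 h. POLR1B, of RNA polymerase I, NOLC1, a nucleolar chaperone, and UTP4, of the small subunit processome, were 2.34-fold, 2.06-fold and 1.5-fold higher. Of 63 ribosomal protein genes RPL22L1, RPL27A and RPL23 were higher and RPL3 and RPL28 lower, each a smaller share than over all transcript clusters. The lower count was 8 without 1 h replicate 1, and 0 without 6 h replicate 3 or after subtracting each array's median. Of 19 aminoacyl-tRNA synthetases 4 were higher (21.1%) and 2 lower (10.5%). RARS1 and FARSB were 1.62-fold and 1.65-fold higher, and QARS1 and AARS1 1.55-fold and 1.78-fold lower. The counts were 9 and 4 without 1 h replicate 1, and 2 and 2 without 1 h replicate 2. Of 149 small nuclear and nucleolar RNAs 33 were lower (22.1%) and 6 higher (4.03%), with a median of -0.4. The lower count was 17 without 6 h replicate 1, 22 without 1 h replicate 2 and 20 without 1 h replicate 3. Without both 1 h replicates 1 and 2 the median was -0.43. RNU11, of the minor spliceosome, was 3.06-fold lower, with 9.15, 9.18 and 9.20 at 6 h and 10.54, 10.88 and 10.94 at 1 h. RNVU1-3 and RNVU1-15, variants of U1 RNA, were 6.7-fold and 2.91-fold lower, and SNORD75 was 2.0-fold higher. RNVU1-3 was under the filter's level on each 6 h array, so its fold depends on signals near the array's background. Such RNAs come in near-identical copies, so their signals can be shared. Of 375 zinc finger genes with a ZNF symbol 93 were higher (24.8%) and 24 lower (6.4%), with a median of 0.19. The higher count was 40 without 6 h replicate 3, 160 without 1 h replicate 1, 52 without 1 h replicate 2 and 58 without 1 h replicate 3. ZNF57 was 2.22-fold and ZNF343 1.97-fold higher, and ZNF362 and ZNF618 were 3.31-fold and 3.19-fold lower.

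The stress lists differed in how their shares compared with the 11.3% higher and 15.2% lower over all transcript clusters. Both shares were larger for heat shock genes (47.4% and 26.3%), the lower share was larger for p53 targets (35.3%) and for autophagy and lysosome genes (26.1%), and the shares were nearer to those over all for the stress response list (20.7% and 17.2%) and the NRF2 list (15.4% each). Of 29 genes of the unfolded protein and integrated stress responses 6 were higher and 5 lower, and the higher count was 3 without 6 h replicate 1, 6 h replicate 3 or 1 h replicate 2. PPP1R15A, which ends the integrated stress response, had log2 signals of 9.69, 9.57 and 9.57 at 6 h and 11.18, 11.69 and 11.28 at 1 h, 3.42-fold lower (limma adjusted p = 5.67e-06). DDIT3, the gene of CHOP, was 2.58-fold lower, and PHGDH and PSAT1, of serine synthesis, 2.42-fold and 2.25-fold. Of 19 heat shock genes 9 were higher and 5 lower (median 0.23), or 5 higher without 6 h replicate 1 or 3, and 3 lower without 6 h replicate 2 or 3 or 1 h replicate 3. DNAJB4 was 4.22-fold and HSPB1 1.79-fold lower, and the cochaperones DNAJA1 and DNAJB6 were 2.12-fold and 1.75-fold higher. Of 26 NRF2 and antioxidant genes 4 were higher and 4 lower. GCLM, of glutathione synthesis, was 3.23-fold higher, with 8.58, 8.47 and 8.54 at 6 h and 7.28, 6.44 and 6.79 at 1 h. TXNRD1, a thioredoxin reductase, and SOD2, the mitochondrial superoxide dismutase, were 2.53-fold and 2.34-fold higher, and TKT, a transketolase, was 1.92-fold lower. Of 17 p53 targets 6 were lower, or 3 without 6 h replicate 1, 6 h replicate 3 or 1 h replicate 3, and 4 were higher without 1 h replicate 1. DDB2 and XPC, of nucleotide excision repair, PLK3 and BAX were 2.24-fold, 1.42-fold, 2.17-fold and 1.46-fold lower. Of 23 autophagy and lysosome genes 6 were lower, or 10 lower and 4 higher without 1 h replicate 1; CTSD, cathepsin D, was 1.63-fold, SQSTM1, an autophagy receptor, 1.52-fold, HEXA, a hexosaminidase, 1.94-fold and ULK1, an autophagy kinase, 1.56-fold lower.

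Among the lists that remain, 40.7% of the TGF-β, BMP and ID genes and 33.3% of the YAP list were lower. Over all transcript clusters 15.2% were lower and 11.3% higher. Beside targets, the YAP list holds genes of the pathway itself, such as YAP1, TEAD1 and LATS1. The shares higher and lower lay nearer to those over all for the BCL2 family (15.4% and 23.1%), the interferon response (17.4% and 21.7%) and prostaglandin synthesis (1 and 2 of 10). Of 27 TGF-β, BMP and ID genes 11 were lower and 4 higher, or 6 lower without 6 h replicate 3 and 9 lower and 9 higher without 1 h replicate 1. ID2, an inhibitor of basic helix-loop-helix factors, was 2.07-fold lower, and the ubiquitin ligases SMURF2 and SMURF1 were 3.8-fold and 1.79-fold higher. Of 10 genes of the EGF family and its receptors 3 were higher and 2 lower. NRG1, neuregulin 1, had log2 signals of 11.65, 11.59 and 11.77 at 6 h and 10.06, 8.56 and 9.64 at 1 h, 4.75-fold higher (limma adjusted p = 1.69e-05). HBEGF, heparin-binding EGF, was 3.15-fold and EGFR, its receptor, 2.08-fold higher, while ERBB3 was 2.31-fold lower. Of the 18 genes of the YAP and mechanosensitive list 6 were lower and 1 higher, or 8 and 4 without 1 h replicate 1. Without any single 6 h array or without 1 h replicate 3, 3 were lower. The matricellular genes CCN1 and CCN2 were 2.38-fold and 3.1-fold lower, AMOTL2 2.33-fold and AJUBA 1.47-fold. Of 13 BCL2 family genes 2 were higher and 3 lower; BCL2A1, an antiapoptotic NF-κB target, was 2.38-fold and BID 1.74-fold higher, and BMF and BAD were both 1.45-fold lower. Without 6 h replicate 3 only 1 was lower, and BAD overlapped between the times and was called in 4 of 6 leave-one-out fits. BCL2A1 was under the filter's level on each 1 h array. Of 23 interferon response genes 4 were higher and 5 lower, or 6 and 10 without 1 h replicate 1, 2 and 5 without 6 h replicate 3, 2 and 4 without 1 h replicate 2, and 3 and 3 without 1 h replicate 3. TAP2 and TAP1, peptide transporters of antigen presentation, were 2.15-fold and 1.51-fold higher, and the factors IRF1 and IRF3 4.07-fold and 1.72-fold lower. Of 20 haemostasis and vasoactive genes 5 were higher and 2 lower, or 2 higher without 6 h replicate 1 or 3, 4 lower without 1 h replicate 1 and 1 higher without both 1 h replicates 1 and 2. VEGFC, a lymphatic growth factor, was 1.74-fold and OXTR, the oxytocin receptor, 1.35-fold higher, and PDGFB and ADM, adrenomedullin, were 2.55-fold and 1.62-fold lower. Of 10 prostaglandin genes PTGES3 was higher (1.48-fold) and PTGER4 and PTGIS lower (2.29-fold and 1.35-fold), and PTGES was not called; only 1 was lower without 6 h replicate 1. Of the fibroblast and smooth muscle markers none of 7 was called, and of the leukocyte markers 1 of 5 was higher and 1 lower, with none higher in 5 of 6 leave-one-out fits.

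The 3 h arrays show how much of the 6 h difference had been reached by then. The share is the 3 h mean minus the 1 h mean, over the 6 h mean minus the 1 h mean, so the 1 h arrays stand in both parts and no test was made. Over the transcript clusters called in each leave-one-out fit the median share was 71.3% for the 857 higher and 66.6% for the 1374 lower. It was 98.1% for the 8 NF-κB and feedback genes that were higher in each of those fits, 95.8% for the 12 such cytokines and 83.0% for the 24 immediate early genes that were lower. It was 53.9% for the 7 NF-κB and feedback genes that were lower, of which 3 were under 25%, and 39.6% for the 3 cytokines that were lower. It was 40.8% for the 12 cholesterol genes, 44.3% for the 15 S phase genes and 28.5% for the 12 histone genes. For the 11 genes of the hypoxia list that were higher it was 34.5%, and 5 of these were under 25%. BNIP3 had log2 signals of 10.60, 10.55 and 10.65 at 1 h, 10.35, 10.57 and 10.82 at 3 h, and 12.12, 11.80 and 11.98 at 6 h, and its share was -1.63%. STC2 reached 8.16% and IDI1 18%, against 82.3% for CCL5, 122% for IL1B, 87.5% for NR4A1 and 98.6% for NR4A2. Shares over 100% mean that the 3 h mean lay beyond the 6 h mean. PRDM1 was at 122%, lower at 3 h than at 6 h.

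**Figure D4:**
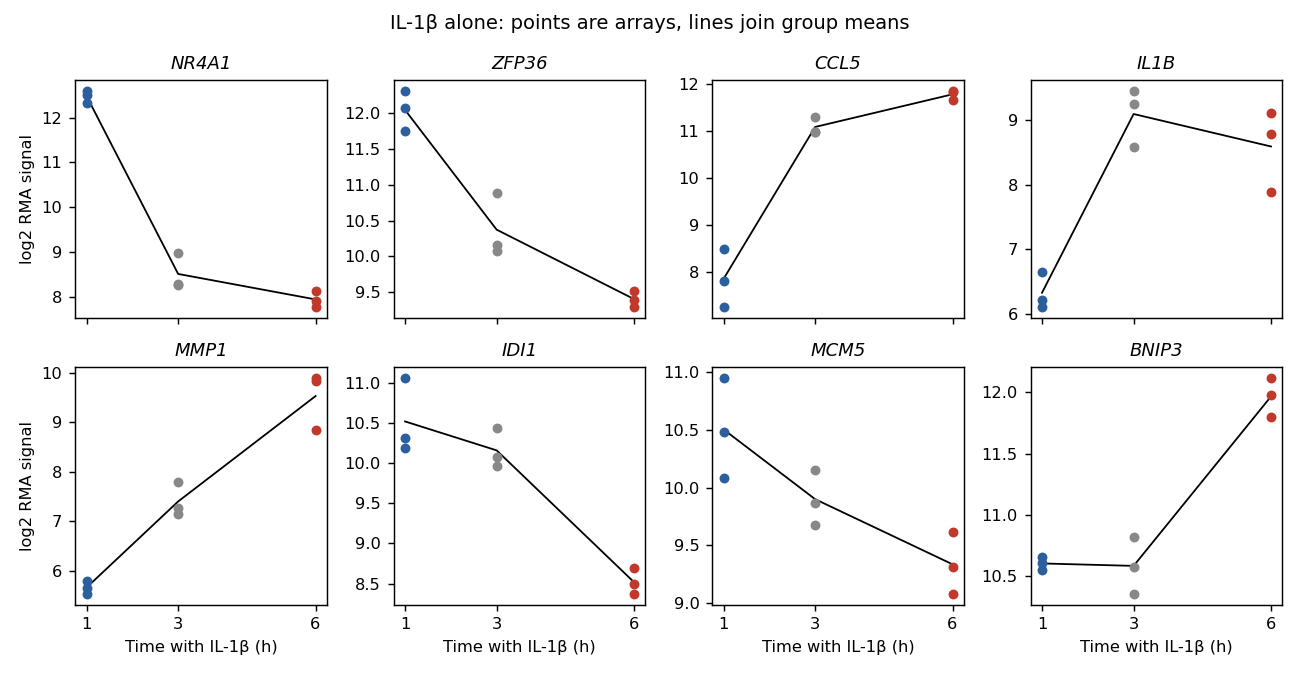
Log2 RMA signal (y axis, a scale per panel) against hours with IL-1β alone (x axis) for 8 genes; points are arrays, 3 per time, and lines join the means. NR4A1, CCL5 and IL1B had changed most by 3 h, whereas BNIP3 and IDI1 changed mostly between 3 and 6 h.

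The same times were compared in cells given aminaphtone with IL-1β, on 6 arrays that the IL-1β alone comparison does not use, although both take their spread from all 18 arrays. There 950 transcript clusters were higher (6.01% of those tested) and 1694 lower (10.7%), 16.7% in all by limma, or 1273 and 1336 with each array centred on its median. Of the 4185 transcript clusters called with IL-1β alone, 3916 (93.6%) had the same sign with aminaphtone. Those called in both with the same direction numbered 1604, which is 38.3% of the calls with IL-1β alone and 60.7% of the 2644 with aminaphtone. NR4A1, CCL5, MMP1 and IDI1 had log2 differences of -4.52, 3.92, 3.87 and -2.0 with IL-1β alone and of -4.23, 4.52, 2.86 and -2.47 with aminaphtone. Of the cholesterol list 12 of 16 were lower with IL-1β alone and 14 with aminaphtone. Of the S phase list 17 of 32 were lower with IL-1β alone and 30 with aminaphtone. Of the G2/M list 9 were higher and 3 lower with IL-1β alone, and 0 were higher and 9 lower with aminaphtone (medians 0.38 and -0.47), but no member of these 3 lists passed the test of the difference between the arms.

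The difference itself, the change with IL-1β alone minus the change with aminaphtone, was tested in the same fit. It was called for 8 transcript clusters, 6 positive and 2 negative (0.0506% of those tested), and at an unadjusted p under 0.05 for 11.9%. The count was 3388 without 1 h replicate 1 of IL-1β alone, and 3 to 10 without any other single array of the 12. BNIP3 had log2 signals of 12.12, 11.80 and 11.98 at 6 h and 10.60, 10.55 and 10.65 at 1 h with IL-1β alone, and of 10.86, 10.57 and 10.45 at 6 h and 10.78, 10.78 and 10.70 at 1 h with aminaphtone. Its changes were 1.37 and -0.13, which differed by 1.49 (SE 0.183, limma adjusted p = 0.00236). The 6 h arrays with IL-1β alone were the only high ones of the 12.

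PDK1, P4HA1 and PFKFB4 were called for the difference as well. PDK1 changed by 1.72 with IL-1β alone and by -0.04 with aminaphtone (difference 1.77, limma adjusted p = 0.0321). P4HA1, a prolyl hydroxylase subunit for collagen, changed by 1.64 and by 0.06 (difference 1.58, limma adjusted p = 0.0321), and PFKFB4 by 1.25 and by -0.08 (difference 1.34, limma adjusted p = 0.0387). AK4, a mitochondrial adenylate kinase, and ANXA3, an annexin, had differences of 1.21 and 1.33 and missed the threshold (both limma adjusted p = 0.0766). Of the 27 genes of the hypoxia list 16 were higher and 4 lower with IL-1β alone, and 6 higher and 3 lower with aminaphtone. The difference was called for 2 of them, BNIP3 and P4HA1. The differences for BNIP3, DIPK2A and PRDM1 were called in 12 of 12 fits that left out 1 array. Those for MYLIP were called in 6, for PDK1 and PFKFB4 in 3, and for P4HA1 and MIDEAS in 2, with highest adjusted p-values of 0.117 to 0.172.

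In the remaining 4 genes the 1 h arrays of the arms lay apart. PRDM1 stood at 9.53, 9.12 and 9.52 at 1 h with IL-1β alone and at 8.02, 7.93 and 8.31 at 1 h with aminaphtone, and its falls of -2.03 and -0.73 differed by -1.29 (limma adjusted p = 0.00514). MIDEAS, of a histone deacetylase complex, fell by log2 differences of -2.73 and -1.73 (difference -1.0, limma adjusted p = 0.036). MYLIP, a ubiquitin ligase for the LDL receptor, stood at 7.51, 7.11 and 7.63 at 1 h with IL-1β alone and at 8.79, 8.91 and 9.06 at 1 h with aminaphtone, and its changes were -0.01 and -1.35 (difference 1.34, limma adjusted p = 0.0206). DIPK2A, a protein with a divergent kinase domain, rose by 0.57 with IL-1β alone, with 8.67, 8.58 and 8.66 at 6 h and 8.30, 7.92 and 7.99 at 1 h. With aminaphtone it fell by 0.75, with 7.93, 7.91 and 8.0 at 6 h and 8.68, 8.68 and 8.71 at 1 h (difference 1.31, SE 0.157, limma adjusted p = 0.00236). DIPK2A and FAM162A, a mitochondrial protein (0.37 and -0.33), were the 2 transcript clusters called in opposite directions in the arms, and FAM162A, named for that after its values were seen, did not pass the test of the difference (limma adjusted p = 0.239).

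**Figure D5:**
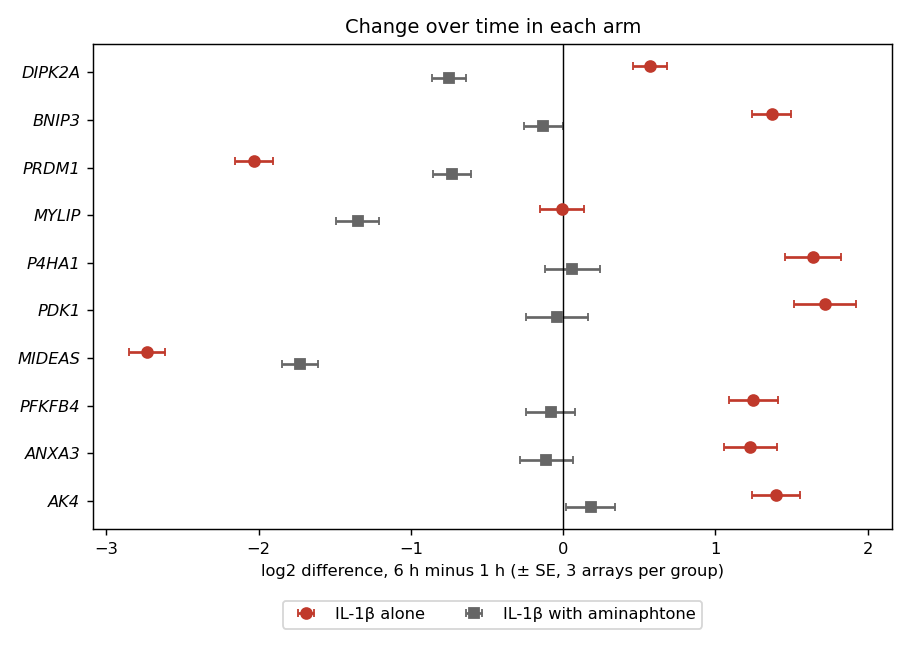
Log2 difference, 6 h minus 1 h, with its SE (x axis) for the 10 genes with the smallest p for the difference between the arms (rows); red circles are IL-1β alone and grey squares IL-1β with aminaphtone, 3 arrays per group. BNIP3, P4HA1, PDK1, PFKFB4, ANXA3 and AK4 lie between 1.23 and 1.72 with IL-1β alone and between -0.13 and 0.18 with aminaphtone.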

How the data were processed

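Gene expression was measured in 18 samples of ECV304 cells, 3 in each of 6 groups set by treatment and time, of which 6 make the main comparison. As deposited, each value is a log2 signal of 1 transcript cluster. The authors computed it by RMA in Affymetrix Expression Console, per the submitters' processing notes. The program's version, the set of arrays normalized together and the genome build of the annotation are not given in the sources used here. RMA forces the arrays to 1 distribution of signals, so a difference is relative to the other genes. Of 28869 transcript clusters 21062 are annotated, and 19310 of them have 1 symbol, of which 19279 were found in RefSeq. Array data carry no count of reads, and precision is set by the 3 arrays per group.

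Transcript clusters with annotation were tested where their mean signal passed the 25th percentile (log2 6.193). There were 15796 of them, with 13805 genes under a single symbol. The fit was made with limma 3.58.1 under R 4.3.3 on the 18 arrays together and gave each group its own mean; it had 12 residual and 4.814 prior degrees of freedom. Tests were two-sided, and p-values were adjusted by the Benjamini-Hochberg method over the 15796, with a threshold of 0.05. Tested on simulated data of this size, the fit recovered 37.3%, 79.1% and 98.5% of changes of 0.5, 1 and 2 log2 units, with 7 false calls. The simulated arrays had the same spread in all 6 groups. In the data the median standard deviation with IL-1β alone was 0.281 at 1 h and 0.117 at 6 h. The simulation therefore cannot tell how the fit does with such unequal spread.

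The members, the 33 gene lists and 4 marker lists were chosen with earlier results of these data known. Named were the 12 largest rises and 12 largest falls without overlap that were called with each of the 6 arrays left out, in each list the 4 members of smallest p or fewer, and the 10 smallest p-values for the difference between the arms. Further list members were named, after their values were seen, to show where a list's calls lie. Each gene was read from its transcript cluster with the highest mean. Promoters are RefSeq's (GRCh38.p14), of the 2 called members with the smallest p in each of 4 lists. Of several listed starts the one with the most motif matches was taken, and the first where they tied. Same-numbered arrays at 6 h and 1 h deviated from their group means with correlations of -0.444, 0.327 and -0.216, so the numbers were not taken as pairs.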

Additional observations from a re-analysis of the deposited data

Results flagged for a closer look

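For 8 genes the change between 1 and 6 h differed between IL-1β alone and IL-1β with aminaphtone by the test of that difference. The log2 difference of the changes, IL-1β alone minus aminaphtone, was 1.77 for PDK1, 1.58 for P4HA1, 1.49 for BNIP3, 1.34 for PFKFB4 and for MYLIP, 1.31 for DIPK2A, -1.0 for MIDEAS and -1.29 for PRDM1. The limma adjusted p-values ran from 0.00236 to 0.0387, and 3 of the 8, BNIP3, DIPK2A and PRDM1, were called in 12 of 12 fits that left out 1 array. With only the 12 arrays at 1 and 6 h in the fit, 3 transcript clusters were called.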

How the results depend on the processing

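The 4185 calls between 6 h and 1 h with IL-1β alone ranged from 2586 to 7083 with 1 of the 6 arrays left out, and were 1088 with only these 6 arrays in the fit, 2049 with the 9 arrays of IL-1β alone, and 11742 with array weights, whose estimate did not converge. The 2644 calls with aminaphtone ranged from 1643 to 1966 with 1 array left out, and were 5201 with only those 6 arrays and 9174 with array weights. The 8 calls for the difference ranged from 3 to 3388, with 3388 without 1 h replicate 1 of IL-1β alone, and were 3 with the 12 arrays at 1 and 6 h, 7981 with array weights and 17 without both 1 h replicates 1 and 2, a check added after the data were seen. The filters, the trended variance and the centring left the 3 totals within 1.5 times, but the centring moved the 1783 higher and 2402 lower with IL-1β alone to 2102 and 2059. With the replicate number as a block they were 4457, 2745 and 6, and the number was not taken as a pairing. The alternatives were followed gene by gene for 153 genes, those named by rule and FAM162A, and no called change of these turned direction. Further list members, named after their values were seen, were not followed in this way. Of the 153 genes 121 kept their side of the threshold with only the 6 arrays compared, 140 with the 9 arrays, and 145 to 150 with 1 array left out. The causes were not tested.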
